A study of Mus musculus with 2 samples.

Results

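In mouse erythroid progenitors, RNA was measured for 43 genes that encode enzymes of glycolysis, the pentose phosphate pathway, and the pyruvate dehydrogenase complex and TCA cycle. Members were chosen by name. An Ensembl identifier in the deposited gene tables, with its version removed, had to carry 1 of the 43 enzyme symbols in GENCODE M21. All 43 were found among 43346 Ensembl genes, of which 21461 were protein-coding genes on nuclear chromosomes. The set held 18 genes of glycolysis (including Bpgm, which makes the haemoglobin effector bisphosphoglycerate), 7 of the pentose phosphate pathway, and 18 of pyruvate dehydrogenase and the TCA cycle.

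The series measured ribosome-depleted total RNA from CFU-E, the colony-forming committed progenitor of the red cell lineage, in 1 group of 2 libraries. The cells were primary cells of adult male C57BL/6J mice aged 5 to 6 weeks, with no genetic change and no treatment in the labels. Both libraries started from 100 ng of RNA. The labels number them as biological replicates 1 and 2, with recorded size ranges of 209 to 891 and 186 to 747. Both carry the same donor identifier under different biosample identifiers, so part of their spread may be technical. With 1 group and no control there was nothing to test. Values are therefore given for replicate 1 and then replicate 2, with the mean and SD over n = 2 where a single value helps.

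Glycolysis splits glucose into pyruvate in the cytosol and yields ATP, and lactate dehydrogenase then regenerates its NAD. The pentose phosphate pathway diverts glucose phosphate to make NADPH, which protects against oxidants, and ribose phosphate for nucleotides. The TCA cycle oxidises pyruvate carbon in mitochondria and also supplies succinyl-CoA for heme. Mature red cells have lost their mitochondria and live on the cytosolic pathways, whereas CFU-E still have them.

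Of the transcripts behind these enzymes, those of hexokinase 1 and the pyruvate kinases carried the sequence differences that matter most in red cells. Hexokinase 1 has a red cell form made from its own first exon, and a common form whose first exon encodes the hydrophobic stretch that binds mitochondria. In GENCODE M21 on mm10 (GRCm38) the model Hk1-205 starts in the exon at chr10:62342501-62342722, minus strand, and the model Hk1-202 in the exon at chr10:62340013-62340542. The coding parts of these exons, 60 and 63 bases long, are shown because counts were assigned to models of both forms in unequal shares. They run 5′ to 3′ on the gene's strand with the start codon in capitals.
Hk1-205, chr10:62342501-62342560: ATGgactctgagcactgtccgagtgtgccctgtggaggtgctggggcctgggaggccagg
Hk1-202, chr10:62340013-62340075: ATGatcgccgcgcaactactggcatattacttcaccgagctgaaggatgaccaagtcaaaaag

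Pyruvate kinase M is spliced with either of 2 mutually exclusive exons of 167 bases. The exon at chr9:59675568-59675734, plus strand, is that of the M2 form of proliferating cells and is carried by the model Pkm-201. The exon at chr9:59675029-59675195 is that of the M1 form of adult muscle and brain and is carried by Pkm-202. The capitals mark the 64 positions at which the exons differ when laid over each other base by base, and the remaining 61.7% of positions are shared.
Pkm-201 exon: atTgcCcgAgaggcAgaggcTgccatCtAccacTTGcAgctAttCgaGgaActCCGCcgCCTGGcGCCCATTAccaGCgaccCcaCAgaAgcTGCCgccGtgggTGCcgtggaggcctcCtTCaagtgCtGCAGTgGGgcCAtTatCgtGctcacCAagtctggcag
Pkm-202 exon: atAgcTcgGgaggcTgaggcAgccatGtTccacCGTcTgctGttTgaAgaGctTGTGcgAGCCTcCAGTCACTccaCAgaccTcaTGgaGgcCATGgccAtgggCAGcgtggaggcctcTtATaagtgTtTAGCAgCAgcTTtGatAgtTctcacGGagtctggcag

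Pyruvate kinase L/R has an upstream start used in red cells and a downstream start used in liver. RefSeq on GRCm38.p6 gives a promoter for each on chromosome 3, plus strand, and stretches of 250 and 229 bases of them are shown because the annotated Pklr models have different starts; all Pklr counts in the deposited tables lay on Pklr-202. The first ends at the base before the upstream start at position 89136142. The second ends 30 bases into the first exon of the GENCODE model Pklr-202 and lies before the RefSeq downstream start at position 89136623. Capitals mark AGATAA, a motif bound by GATA factors, and TATAAA, the TATA box.
Pklr upstream promoter, chr3:89135892-89136141: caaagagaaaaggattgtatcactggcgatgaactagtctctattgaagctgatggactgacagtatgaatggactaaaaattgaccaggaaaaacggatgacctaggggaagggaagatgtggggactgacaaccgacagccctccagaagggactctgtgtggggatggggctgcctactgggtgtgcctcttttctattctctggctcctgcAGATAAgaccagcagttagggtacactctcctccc
Pklr downstream promoter, chr3:89136373-89136601: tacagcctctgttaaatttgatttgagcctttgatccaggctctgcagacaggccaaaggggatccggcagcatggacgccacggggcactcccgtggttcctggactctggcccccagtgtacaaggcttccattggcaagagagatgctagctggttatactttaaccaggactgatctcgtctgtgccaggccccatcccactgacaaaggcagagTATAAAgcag

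Expected counts are the read numbers that the authors' quantification assigned to each gene. Over the Ensembl genes they summed to 62576357 in replicate 1 and 36889517 in replicate 2. The enzyme genes held 89042 and 53944 of them, which was 0.308% and 0.314% of the counts on nuclear protein-coding genes. The median enzyme gene had 978 counts in replicate 1 and 711 in replicate 2. Levels are in TPM, a relative abundance that divides counts by transcript length and so allows comparison between genes. Nuclear protein-coding genes held 12.4% of all TPM in replicate 1 and 7.49% in replicate 2, and other kinds of RNA the rest. Deposited TPM was higher in replicate 1 for 35 of the 43 genes, whereas TPM rescaled so that nuclear protein-coding genes fill the whole scale was higher in replicate 1 for 20 and in replicate 2 for 23. All 12 erythroid marker genes reached 1 TPM in each library, led in mean level by the globins Hba-a2, at 16411.51 and 7587.73 TPM, and Hbb-bs, at 4198.04 and 1439.52 TPM. All 12 granulocyte markers were too, with a summed 1248.45 TPM in replicate 1 and 634.98 TPM in replicate 2, and their part in the enzyme values was not tested. Monocyte and macrophage genes (7 of 8) summed to 137.80 and 86.71 TPM, B cell genes (4 of 6) to 37.99 and 19.92 TPM, and mast cell, basophil and eosinophil genes (4 of 6) to 34.49 and 21.53 TPM. Megakaryocyte genes (2 of 6) summed to 13.61 and 4.24 TPM, with Gp1bb at 0, and T and NK cell genes (2 of 6) to 4.57 and 3.35 TPM. Of 8 genes of stem cells and early progenitors, 0 reached 1 TPM in both libraries, and Kit, a receptor of CFU-E, had 0.42 and 0.51 TPM. In such bulk RNA, more cells of a type and more RNA per cell cannot be told apart.

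Enzyme RNA of all 3 pathways was present in CFU-E, and it was unevenly spread over the steps. At least 1 TPM in both libraries was reached by 33 of the 43 genes, where 23.9% of nuclear protein-coding genes reached it. Of each pathway that was 12 of 18 for glycolysis, 7 of 7 for the pentose phosphate pathway and 14 of 18 for pyruvate dehydrogenase and the TCA cycle. Median levels over the genes of a pathway, taken on the mean of both libraries, were 2.28 TPM for glycolysis, 4.53 TPM for the pentose phosphate pathway and 2.97 TPM for pyruvate dehydrogenase and the TCA cycle. The median over all 43 genes was 2.98 TPM, against 0.0550 TPM over all nuclear protein-coding genes. Among genes that reached it in both, the medians were 4.53 TPM for the enzymes and 4.41 TPM for nuclear protein-coding genes. The detected enzymes thus stood near the middle of the detected genes. On the rescaled scale, 42 of the 43 genes reached 1 TPM in both libraries, where 42.2% of nuclear protein-coding genes did; Ldhb was the exception.

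Transaldolase, hexokinase 1, glyceraldehyde-3-phosphate dehydrogenase and bisphosphoglycerate mutase stood at the top. Taldo1 (chr7:141392199-141402968), Hk1 (chr10:62268855-62379908), Gapdh (chr6:125161715-125166467) and Bpgm (chr6:34476207-34505613) together held 40.7% of the enzymes' TPM in replicate 1 and 40.0% in replicate 2. Their levels exceeded 10 TPM in both libraries, as did that of Dlst, and 4.79% of nuclear protein-coding genes passed that level. Protein-coding models of Gapdh held 15.55 TPM in replicate 1 but 2.84 TPM in replicate 2, so its place in replicate 2 rested on other models. At the other end, Hk2, Pfkl, Pfkp, Aldoc, Pklr and Ldhb, all of glycolysis, were under 1 TPM in both libraries. Dlat and Suclg1 were under 1 TPM in replicate 1 alone, and Idh3a and Suclg2 in replicate 2 alone.

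**Figure D1:**
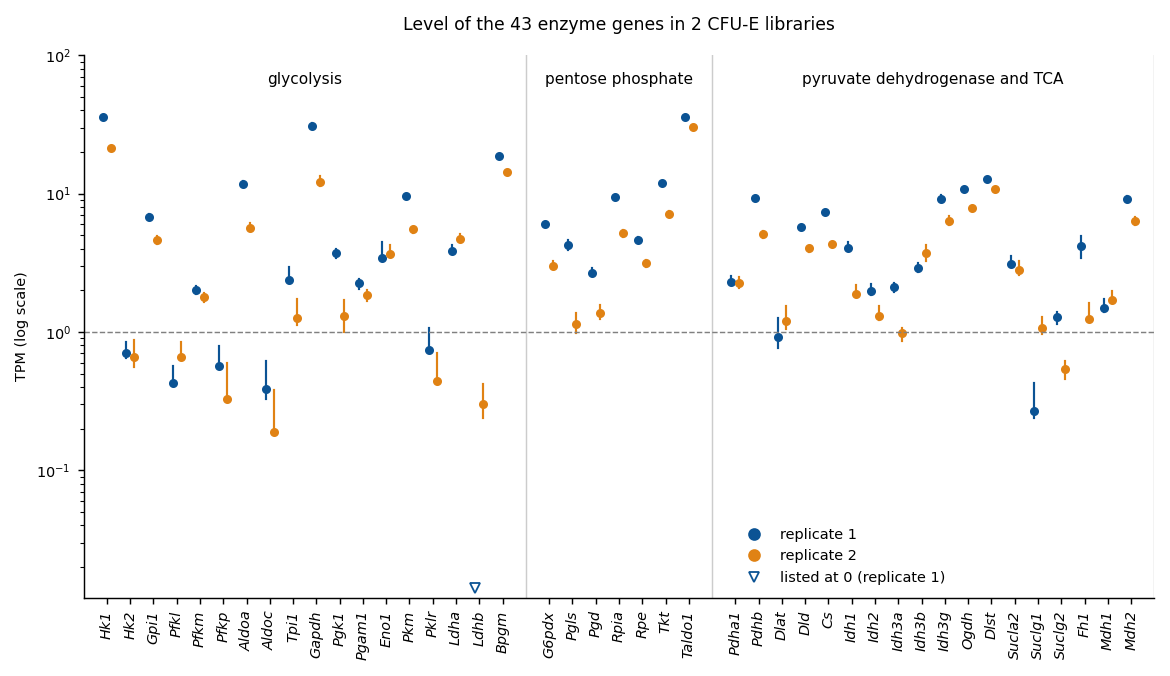
Deposited TPM of each of the 43 genes on a log axis, with replicate 1 and replicate 2 side by side, in pathway order; lines are the deposited credibility intervals and the dashed line is 1 TPM. Hk1, Gapdh, Bpgm and Taldo1 lie above 10 TPM in both libraries, 6 genes of glycolysis lie under 1 TPM in both, and Ldhb is listed at 0 in replicate 1.

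RNA for glucose phosphorylation, the entry to all of these routes, came mostly from Hk1. Hk1 had 35.90 TPM in replicate 1 and 21.28 TPM in replicate 2, and Hk2, the inducible isoenzyme of muscle and growing cells, had 0.71 and 0.66 TPM. Hk1 was thus 50.6-fold and 32.2-fold above Hk2 within the libraries (log2 ratio 5.34 ± 0.46, SD, n = 2). Hk3, an isoenzyme of myeloid cells that is outside the 43 genes, had 1.71 and 1.93 TPM, and Hkdc1 had 0 counts in both libraries. Of the TPM of Hk1, Hk2 and Hk3 together, Hk1 made up 93.7% in replicate 1 and 89.1% in replicate 2, and Hk3 4.46% and 8.09%. Granulocyte genes were present beside Hk3, with S100a8 at 556.79 and 252.62 TPM and S100a9 at 275.01 and 175.19 TPM, and their part in the Hk3 signal was not tested.

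The model with the red cell first exon held the largest share of Hk1. Hk1-205 had 20.15 TPM in replicate 1 and 12.20 TPM in replicate 2, which was 56.1% and 57.3% of the gene. All models that start in its first exon, among them the retained-intron model Hk1-214, made up 67.3% and 64.4% of TPM, and 63.8% and 59.1% of counts. Hk1-202, with the mitochondrial-binding first exon, had 6.30 and 2.00 TPM, or 17.5% and 9.40%. Hk1-201, which starts further upstream at chr10:62358336-62358362, had 2.75 and 4.65 TPM, or 7.67% and 21.8%. Thus the leading model and its share were alike in both libraries, while the order of the minor models was not. These models also differ at the 3′ end. On the minus strand Hk1-205 ends at position 62269909, whereas Hk1-201 runs on to 62269108 and Hk1-202 to 62268855. Reads on those longer ends favour Hk1-201 and Hk1-202 whatever the start. Use of the starts and of the ends of Hk1 therefore cannot be told apart here.

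Phosphofructokinase, the committed step of glycolysis, was low and came mostly from the muscle-type gene. Pfkm had 2.01 TPM in replicate 1 and 1.79 TPM in replicate 2, the liver-type Pfkl 0.43 and 0.66 TPM, and the platelet-type Pfkp 0.57 and 0.33 TPM. Pfkm made up 66.8% and 64.4% of the 3 genes' TPM. Pfkl lay below Pfkm in both libraries (log2 ratio of Pfkl over Pfkm -1.83 ± 0.56, SD, n = 2), with credibility intervals that did not overlap. Between Pfkl and Pfkp the sign differed between the libraries, at -0.41 in replicate 1 and 1.00 in replicate 2. The Pfkp value itself was doubtful. In replicate 1 all of it lay on the retained-intron model Pfkp-211, and the exons of Pfkp overlap Pitrm1 on the opposite strand, which had 5191 counts in replicate 1 and 3073 in replicate 2. All Pfkm TPM lay on the model Pfkm-202, and exons of Pfkm overlap Senp1, which had 3875 and 1875 counts on the opposite strand. The accompanying notes list signal tracks for the plus and minus strands, but whether the gene counts used strand is not given in the sources used here, so reads of such overlapping genes cannot be told apart.

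RNA for the upper middle of glycolysis came mostly from Gpi1, Aldoa and Tpi1. Gpi1, the glucose phosphate isomerase, had 6.80 TPM in replicate 1 and 4.60 TPM in replicate 2, and the aldolase Aldoa had 11.79 and 5.64 TPM. Aldoc, the brain-type aldolase, had 0.39 and 0.19 TPM, so that Aldoa was 30.2-fold and 29.7-fold higher in TPM. In expected counts Aldoa was 30.1-fold and 13.2-fold higher, since Aldoc had 78 and 75 counts, which lay mostly on Aldoc-202 of 1700 bases in replicate 1 and wholly on Aldoc-201 of 2786 bases in replicate 2. The model Aldoa-201 made up 79.6% and 66.3% of Aldoa. Tpi1, which interconverts the triose phosphates and whose deficiency in humans causes haemolytic anaemia, was among the lowest single-gene steps at 2.37 and 1.26 TPM. Its exons overlap Spsb2 on the opposite strand, which had 181 and 101 counts, beside 521 and 209 for Tpi1.

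Gapdh, the NAD-dependent dehydrogenase of the pathway and a common reference gene, had 30.72 TPM in replicate 1 and 12.14 TPM in replicate 2. Much of this sat on a short model. Gapdh-206, a retained-intron model of 565 bases, held 47.6% and 68.9% of Gapdh TPM but 20.5% and 44.9% of its counts, since TPM weights a short model up. Protein-coding models of Gapdh held 15.55 TPM in replicate 1 and 2.84 TPM in replicate 2. Gapdh also has 68 copies of at least 95% identity over 500 bases or more in the tables, which took 119 and 226 counts, against 3993 and 1077 for the gene.

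Downstream of it, Pgk1, the first ATP-yielding kinase, had 3.73 TPM in replicate 1 and 1.31 TPM in replicate 2. The copy Pgk1-rs7, identical to it over 1255 bases, was given 0 counts in replicate 1 and 476 in replicate 2, against 978 and 297 for Pgk1 itself. Pgam1, the phosphoglycerate mutase, had 2.24 and 1.85 TPM. Eno1, the enolase, had 3.42 and 3.66 TPM, and its near-identical copy Eno1b took 681 and 21.4 counts beside the 1009 and 936 of Eno1. Levels of Gapdh, Pgk1 and Eno1 are uncertain to the extent that reads were split between copies.

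Bisphosphoglycerate mutase far exceeded the glycolytic mutase. Bpgm, which feeds the side branch that sets the oxygen affinity of haemoglobin, had 18.58 TPM in replicate 1 and 14.30 TPM in replicate 2. It was 8.29-fold and 7.73-fold above Pgam1 (log2 ratios 3.05 and 2.95). The full-length model Bpgm-201 held 88.0% and 85.0% of the gene, and a retained-intron model, Bpgm-202, held most of the rest. Minpp1, a phosphatase outside the 43 genes that can act on bisphosphoglycerate, had 6.66 and 5.56 TPM.

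At pyruvate kinase, the M gene supplied most RNA and did so in its M2 form. Pkm (chr9:59656368-59679375) had 9.66 TPM in replicate 1 and 5.52 TPM in replicate 2, and Pklr (chr3:89136142-89146784), the gene of the mature red cell enzyme, had 0.74 and 0.44 TPM. Pklr was 7.12% and 7.38% of their sum. Pkm-201, with the M2 exon, held 100% and 99.3% of Pkm, and Pkm-202 held 0 counts in replicate 1 and 12.7 in replicate 2, with credibility intervals reaching up to 0.22 and 0.17 TPM. The tables give both Pkm models the same length, 2432 bases, so their shares do not depend on a length correction.

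All Pklr reads were assigned to the liver-type model. Pklr-202, with the downstream start, held 323 counts in replicate 1 and 179 in replicate 2, and Pklr-201, with the upstream red cell start, held 0 in both. The models start 430 bases apart and Pklr-202 also runs 190 bases further at the 3′ end, so reads on that 3′ stretch favour it whatever the start. The credibility interval of Pklr-201 reached 0.18 TPM in replicate 1 and 0.27 TPM in replicate 2, and that of Pklr-202 went down to 0.54 and 0.17 TPM. In replicate 2 these intervals overlapped. Use of the 2 starts and of the 2 ends cannot be told apart in these tables.

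Lactate dehydrogenase RNA was of the A type. Ldha, which favours lactate formation, had 3.86 TPM in replicate 1 and 4.67 TPM in replicate 2, nearly all on Ldha-202, which held 100% and 93.3%. Ldhb had 0 counts in replicate 1 and 50 counts, 0.30 TPM, in replicate 2. Ldha was 15.6-fold above Ldhb in replicate 2. In replicate 1 it was 153-fold higher when Ldhb was set to 3 counts, and 62.7-fold higher against the deposited upper credibility bound of Ldhb, 0.06 TPM. This was the widest spread of any ratio in the set.

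**Figure D2:**
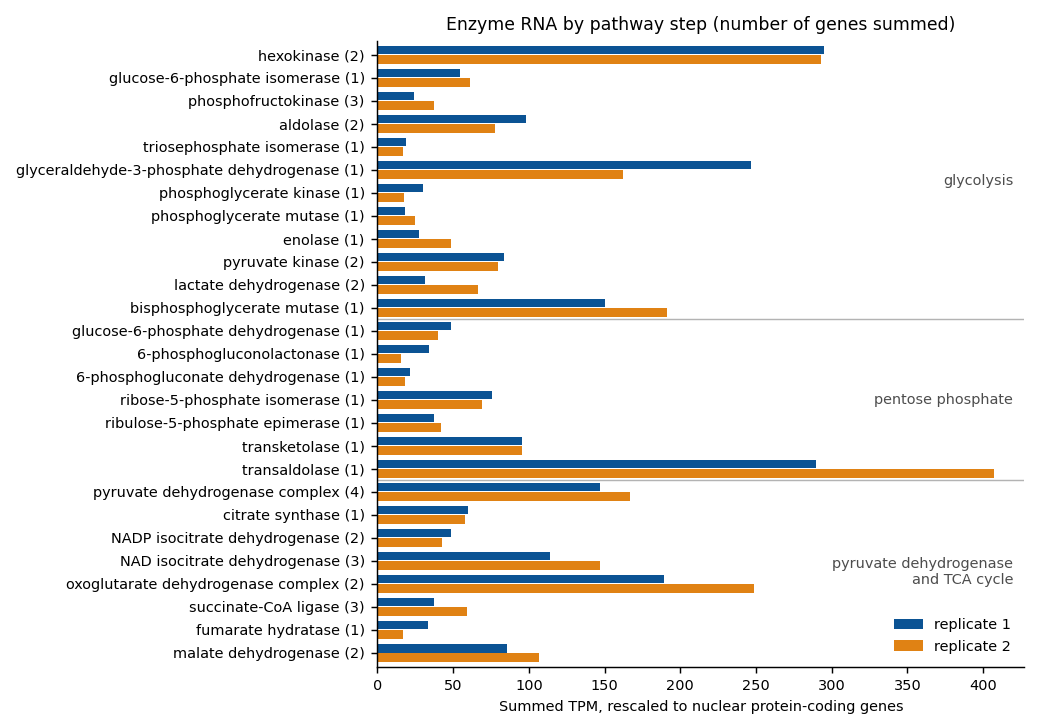
Summed TPM of the genes of each step, rescaled to nuclear protein-coding genes so that the libraries share a scale, with the number of genes in brackets; replicate 1 bars stand above replicate 2 bars. Transaldolase, hexokinase, Gapdh, the oxoglutarate dehydrogenase complex and Bpgm are the longest bars, and the triosephosphate isomerase, phosphoglycerate mutase and phosphogluconate dehydrogenase steps are among the shortest.

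Summed by step, all 27 steps had a summed level of at least 1 TPM in both libraries. On the rescaled TPM scale the highest step, hexokinase in replicate 1 and transaldolase in replicate 2, was 16.4-fold and 26.4-fold above the lowest. Hexokinase had 295 and 293 rescaled TPM, transaldolase 290 and 407, and Gapdh 247 and 162. Phosphofructokinase had 24.2 and 37.1 rescaled TPM over its 3 genes, phosphoglycerate mutase 18.0 and 24.7, and triosephosphate isomerase 19.1 and 16.8. The largest ratios between libraries on this scale were at the lactonase step, with 34.2 in replicate 1 and 15.4 in replicate 2, and at lactate dehydrogenase, with 31.1 and 66.4.

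In the pentose phosphate pathway, the non-oxidative branch held more RNA than the oxidative one in both libraries. The oxidative branch, which makes NADPH, consisted of G6pdx at 6.03 TPM in replicate 1 and 3.02 TPM in replicate 2, the lactonase Pgls at 4.25 and 1.15 TPM, and the phosphogluconate dehydrogenase Pgd at 2.67 and 1.37 TPM. G6pdx was 2.26-fold and 2.20-fold above Pgd (log2 ratio 1.16 ± 0.02, SD, n = 2). G6pdx shares exonic sequence with Ikbkg on the opposite strand, which had 1228 and 850 counts, and Pgls with Fam129c on its own strand, with 247 and 359 counts.

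The non-oxidative branch reshuffles pentose phosphates and returns carbon to glycolysis. Rpia, which makes ribose phosphate, had 9.38 TPM in replicate 1 and 5.15 TPM in replicate 2, and the epimerase Rpe had 4.64 and 3.13 TPM. Rpia lay 2.02-fold and 1.65-fold above Rpe. Exons of Rpe, which had 1873 and 1129 counts, overlap Kansl1l on the opposite strand, with 931 and 771 counts. Tkt, transketolase, had 11.86 and 7.14 TPM. Taldo1, transaldolase, had 36.02 and 30.47 TPM and so ranked first of the 43 genes by mean level, at 33.2 ± 3.92 TPM (SD, n = 2). Tkt over Taldo1 was 0.329 and 0.234. By expected counts, which are not divided by length, Tkt and Taldo1 were close (log2 ratio -0.27), since the main Tkt model is 3225 bases long and that of Taldo1 1229 bases.

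Pyruvate enters the mitochondrial cycle through the pyruvate dehydrogenase complex, whose subunits were uneven. The E1 alpha subunit Pdha1 had 2.31 TPM in replicate 1 and 2.24 TPM in replicate 2, and the E1 beta subunit Pdhb had 9.25 and 5.08 TPM. Pdha1 over Pdhb was 0.250 and 0.441, although the protein is built from equal numbers of both. The E2 subunit Dlat had 0.92 and 1.19 TPM, and the shared E3 subunit Dld had 5.75 and 4.02 TPM. Pdhb and Dld together made up 82.3% and 72.6% of the complex's TPM. Dlat was thin, since only 49.4% of its TPM in replicate 1 lay on the coding model Dlat-201, at 0.45 TPM, and 0.29 TPM in replicate 2.

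Citrate synthase and the isocitrate dehydrogenases followed. Cs had 7.39 TPM in replicate 1 and 4.32 TPM in replicate 2. Of the NADP-dependent enzymes, cytosolic Idh1 had 4.07 and 1.88 TPM and mitochondrial Idh2 had 1.96 and 1.31 TPM, so Idh1 was 2.08-fold and 1.44-fold higher. The NAD-dependent enzyme of the cycle has 3 kinds of subunit. Its catalytic subunit gene Idh3a had 2.10 and 0.98 TPM, Idh3b had 2.92 and 3.74 TPM, and Idh3g had 9.12 and 6.30 TPM. Idh3g made up 64.5% and 57.2% of the 3 genes' TPM. Idh3a over Idh3g was -2.40 ± 0.40 on the log2 scale (SD, n = 2), and -1.85 with protein-coding models alone, since 33.1% of Idh3g TPM in replicate 1 lay on retained-intron models. Idh2 and Idh3a did not differ beyond their spread, with log2 ratios of -0.10 in replicate 1 and 0.42 in replicate 2. Idh3b exons overlap those of Nop56 on the opposite strand, which had 2841 and 1703 counts.

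The oxoglutarate dehydrogenase complex was the highest step of the cycle. Its E1 subunit Ogdh had 10.81 TPM in replicate 1 and 7.84 TPM in replicate 2, and its E2 subunit Dlst had 12.71 and 10.77 TPM. Ogdh over Dlst was 0.851 and 0.728. That order rested on the length correction, because by expected counts the log2 ratio turned to 0.08 from -0.35. The product of this complex, succinyl-CoA, is the substrate with which heme synthesis begins, and Alas2, the erythroid enzyme of that step, had 258.18 and 171.65 TPM.

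Succinyl-CoA is otherwise converted by succinate-CoA ligase, whose RNA was low. The ATP-specific beta subunit Sucla2 had 3.11 TPM in replicate 1 and 2.82 TPM in replicate 2, and the GTP-specific beta subunit Suclg2 had 1.28 and 0.54 TPM. Sucla2 was 2.43-fold and 5.22-fold above Suclg2. The shared alpha subunit Suclg1 had only 0.27 and 1.07 TPM, from 58 and 216 counts. Suclg1 over Sucla2 was 0.0868 and 0.379, so the subunit that every form of the enzyme needs had the least RNA of its pairings in replicate 1, and in replicate 2 lay between the beta subunits.

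Fumarase and malate dehydrogenase complete the cycle. Fh1 had 4.17 TPM in replicate 1 and 1.25 TPM in replicate 2. The cytosolic Mdh1 had 1.49 and 1.71 TPM and the mitochondrial Mdh2 had 9.17 and 6.33 TPM, which gave an Mdh1 over Mdh2 log2 ratio of -2.25 ± 0.52 (SD, n = 2). Some of the signal came from models annotated as targets of nonsense-mediated decay, a quality-control pathway that degrades RNA with an early stop. Mdh2-203 held 72.0% and 33.9% of Mdh2 TPM, and 65.5% and 28.7% of its counts. Fh1-204, of 599 bases, held 47.9% of Fh1 TPM but 14.4% of its counts in replicate 1, and 0% of both in replicate 2. With protein-coding models alone, Mdh1 over Mdh2 was -0.92, nearer to even by more than 1.5-fold.

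Of the 22 ratios between isoenzymes, subunits and neighbouring steps, 20 had the same sign in both libraries with credibility intervals that did not overlap in either. The exceptions were Pfkl over Pfkp and Idh2 over Idh3a. This rule compares intervals within a library and does not measure the spread between libraries. Idh3a over Idh3b was among the 20, with log2 ratios of -0.48 in replicate 1 and -1.93 in replicate 2. In counts its ratios lay on both sides of even, at 1.13 and 0.604. The rule was not applied to other gene pairs. Aldoa over Aldoc (4.90 ± 0.02), G6pdx over Pgd (1.16 ± 0.02) and Pkm over Pklr (3.68 ± 0.04) had the smallest spread in TPM, all as mean log2 ratio and SD over n = 2. In counts G6pdx was 2.73-fold and 2.85-fold above Pgd and Pkm 10.8-fold and 10.5-fold above Pklr, whereas Aldoa over Aldoc was uneven, as given above. The widest were Ldha over Ldhb, where a count of 0 was involved, and Suclg1 over Sucla2, at -3.53 in replicate 1 and -1.40 in replicate 2.

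**Figure D3:**
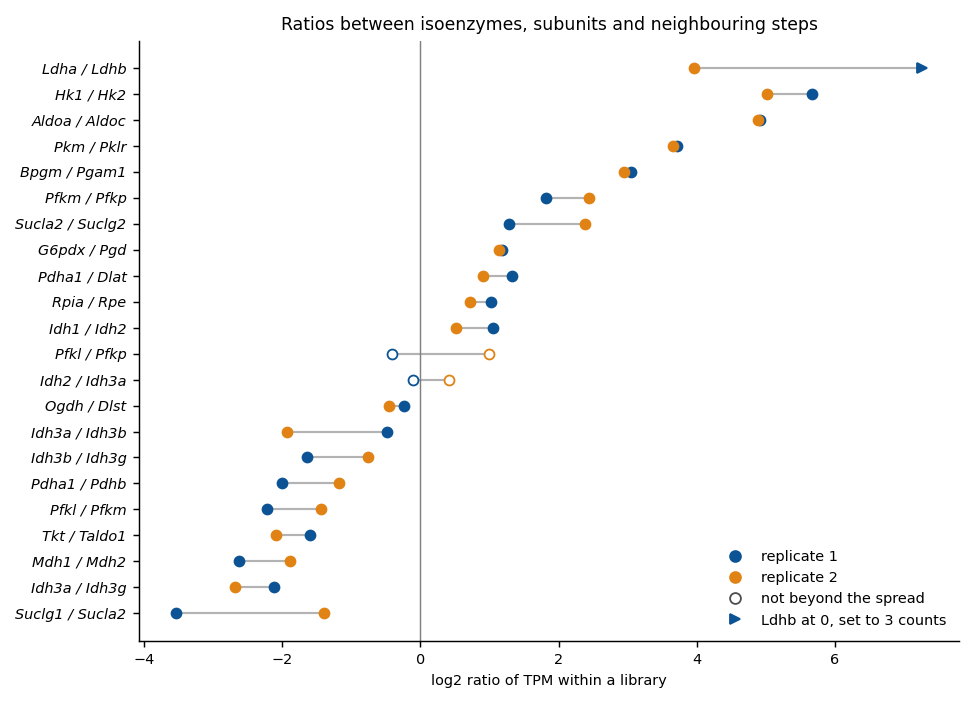
Log2 ratio of TPM within each library for 22 gene pairs, sorted by their mean; filled points are pairs beyond their spread, open points are not, and the triangle is Ldha over Ldhb in replicate 1 with Ldhb set to 3 counts. Points of Aldoa over Aldoc, Pkm over Pklr and G6pdx over Pgd nearly coincide, whereas Pfkl over Pfkp and Idh2 over Idh3a lie on both sides of 0.

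Isoenzymes typical of other tissues were mostly at 0. Of 14 such genes for the same steps, 11 had 0 counts in both libraries, against 42.8% of nuclear protein-coding genes, among them Hkdc1, Gapdhs, Pgk2, Pgam2, Eno2, G6pd2, Tktl1, Tktl2 and Pdha2, and 1, Hk3, reached 1 TPM in both. Eno3, the muscle enolase, had 1.46 TPM in replicate 1 and 0.18 TPM in replicate 2. A count of 0 allows up to 3 counts in a library, so lower levels were not detectable at this depth.

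Genes for further steps that lie outside the 43 were mostly present. Of 9 such genes, 6 reached 1 TPM in each library, where 23.9% of nuclear protein-coding genes did. Some belong to the cycle, and others, such as Pdhx and Minpp1, do not. For succinate dehydrogenase, the catalytic subunit Sdha had 12.25 TPM in replicate 1 and 8.51 TPM in replicate 2, Sdhb had 2.87 and 4.16 TPM, and the membrane anchor Sdhd had 5.45 and 4.41 TPM. Pdhx, which holds Dld in the pyruvate dehydrogenase complex, had 1.90 and 1.30 TPM.

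Of 11 genes that regulate these steps, 3 reached 1 TPM in each library, a share near the 23.9% of nuclear protein-coding genes. Pfkfb2, which makes the bisphosphate activator of phosphofructokinase, had 5.09 TPM in replicate 1 and 3.58 TPM in replicate 2, and its relative Pfkfb1 had 2.90 and 1.39 TPM. Of the kinases that switch pyruvate dehydrogenase off, Pdk3 had 2.51 and 2.42 TPM.

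Transcript models showed how far each gene level rested on 1 model. Of the enzymes, 39 had 100 counts or more in each library, and 31 of these had the same leading model in both with at least 60% of the gene TPM, and 14 had 99% or more in 1 model. Some of the 14, such as Pgam1, Cs and Dld, had only 1 model and so met this by construction. Counts of this kind were not made for other genes. In 3 genes (Dlat, Fh1 and Mdh2) the leading model by TPM differed between the libraries. By counts it differed in 2, Mdh2 and Gapdh, whereas Dlat-201 (92.5% and 67.7%) and Fh1-201 (83.3% and 92.3%) led in both. Models not annotated as protein-coding held over 20% of TPM in 5 of the 39 genes in replicate 1 and in 8 in replicate 2, where 33.2% and 35.5% of nuclear protein-coding genes of that depth passed that share. The median share on such models was 0% in replicate 1, as in the background, and 6.36% in replicate 2, against 1.53% in the background.

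The other mixed genes were Hk2, Tpi1, Idh3b, Hk1 and Gapdh. Hk2-201 held 72.4% of Hk2 in replicate 1 and 49.2% in replicate 2, where the processed transcript Hk2-202 held most of the rest. Tpi1-205 held 94.9% and 59.9% of Tpi1. Idh3b-201 held 100% and 53.3% of Idh3b, with the decay-annotated Idh3b-204 of 452 bases making up most of the difference in replicate 2. Sucla2-201 held 61.0% and 65.0%, and Ogdh-201 held 74.7% and 67.9% of TPM. By counts, Hk2-201 held 84.4% and 91.1% and Sucla2-201 held 54.0% and 78.1%, so the shares differ between the scales.

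**Figure D4:**
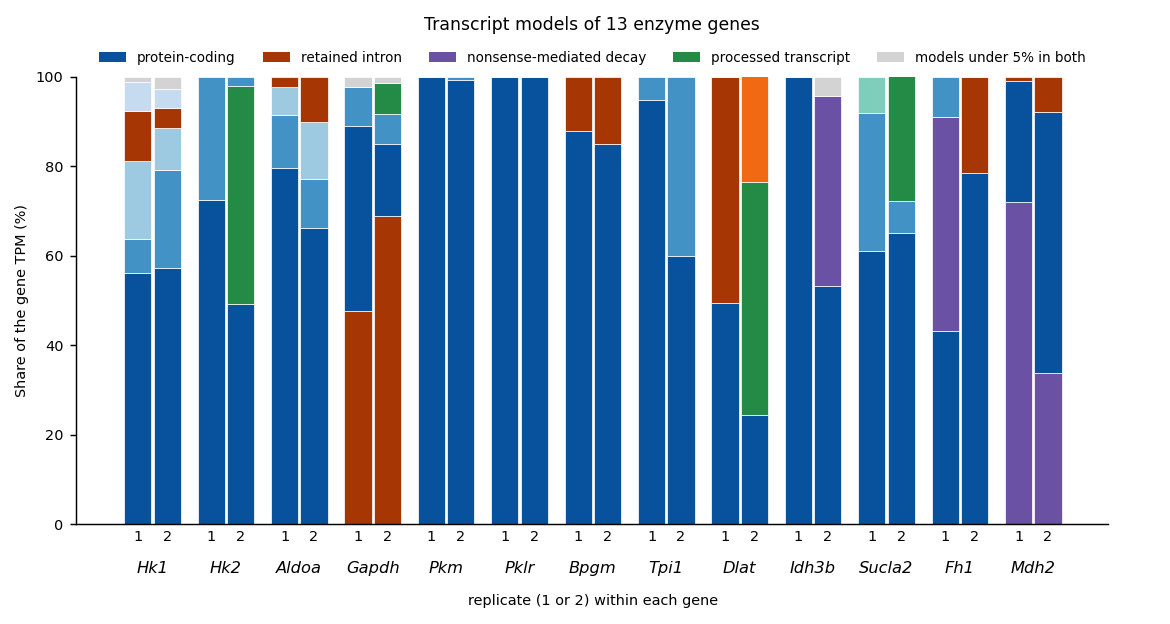
Share of the gene TPM held by each transcript model in 13 genes, with replicate 1 as the left and replicate 2 as the right bar of each gene; colour gives the annotated type and shades separate models. Pkm and Pklr are almost wholly 1 model, and Hk1 is led by the same model in both libraries. In Hk2, Gapdh, Dlat, Fh1 and Mdh2 models that are not annotated as coding take 47.6% or more of a bar.

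Between the libraries, the median difference of the enzyme genes was near that of other genes, many of which had fewer counts. After TMM scaling, 42 of the 43 genes averaged 50 counts or more, and Ldhb did not. Of these, 22 were higher in replicate 1 and 20 in replicate 2, with a median log2 ratio of 0.04 and a median absolute log2 ratio of 0.40, where nuclear protein-coding genes had 0.03 and 0.39. At least 2-fold differences were seen in 4 of the 42 genes, or 9.52%, where 18.8% of 9480 nuclear protein-coding genes averaging 50 counts or more differed so. Of the 9480 genes, 3460 averaged under 300 counts, against 5 of the 42 enzyme genes, so these shares compare unlike depths. Gapdh (log2 ratio 1.19) and Pgk1 (1.02) were higher in replicate 1, as were 9.91% of the 9480 genes, and Suclg1 (-2.58) and Pfkl (-1.21) were higher in replicate 2, as were 8.85%.

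The differences at Gapdh and Pgk1 depended on how reads were shared with copies. With reads of near-identical copies added, the log2 ratio was 0.96 for Gapdh and -0.27 for Pgk1, and 2 genes, Pfkl and Suclg1, remained past 2-fold. For Eno1 the ratio was -0.01 with copies added and -0.59 without. The remaining pair had low counts. As background, 41.3% of nuclear protein-coding genes averaging 50 to under 300 counts differed by at least 2-fold, 11.5% of those with 300 to under 1000, and 1.69% of those with 1000 to under 3000. Of the enzymes, 1 of 5, 2 of 19 and 1 of 12 in these bands did before copies were added, and 0 of 6 above them. Suclg1 belonged to the first band. Pfkl stood at the start of the second, with 247 counts in replicate 1 and 353 in replicate 2.

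**Figure D5:**
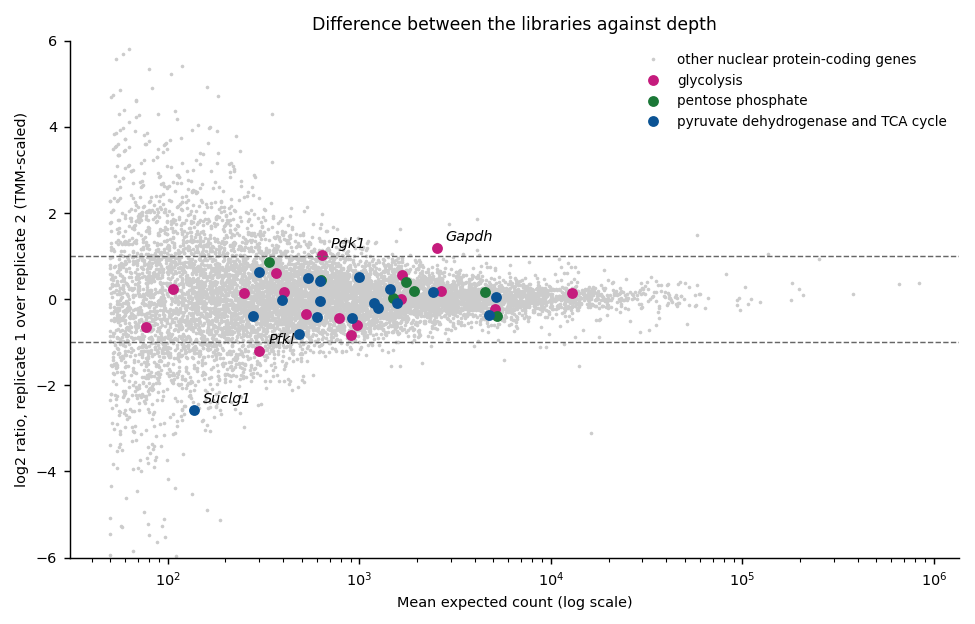
TMM-scaled log2 ratio of replicate 1 over replicate 2 against mean expected count on a log axis, for nuclear protein-coding genes averaging 50 counts or more; dashed lines are 2-fold and 98 genes lie past the axis limits of 6 either way. Gapdh and Pgk1 lie above the upper line, Suclg1 and Pfkl below the lower one, and the other 38 enzyme genes lie between them.

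Promoters of the enzymes looked like those of expressed genes. RefSeq gave promoters for 42 of the 43 genes, each from 250 bases before to 50 bases after the start. The GC box GGGCGG, on either strand, was in the promoters of 32 of these, or 76.2%, against 72.0% of 4102 genes that reached 1 TPM in each library and 51.4% of 16317 protein-coding genes. AGATAA was in those of Dld, Pfkm and Pklr, or 7.14%, against 7.85% of the 4102 genes. TGATAA, the other GATA motif searched, was in those of Aldoa, Mdh2, Ogdh, Pfkm and Pkm, or 11.9%, against 5.63%. TATAAA was only in that of Pklr among the 42, against 8.04%. A match describes letters in the window and not binding.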

How the data were processed

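Per the labels, libraries were prepared with ScriptSeq after removal of ribosomal RNA. The authors deposited gene and transcript tables on mm10, for which the accompanying notes name GENCODE M4; the aligner, the quantifier and any use of strand were not given in the sources used here, though the columns carry RSEM's names. Expected counts, per the file headers, fill 1 column of each table and are estimates that share reads between matching genes. The other deposited columns are TPM, in which the authors corrected counts for effective length, a posterior mean of TPM, and the share of a gene's TPM in each transcript in percent. The authors also deposited lower and upper credibility bounds of TPM, treated here as a signal that is never negative; the headers give no level for them. A TPM lay outside its own bounds for 2 of the 43 genes.

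Names, types and coordinates came from GENCODE M21, matched on identifiers without versions (42462 of 43346 genes). Of 223 enzyme transcripts, all were found in M21 and 208 had the same length there. Depth on the Ensembl genes was 62576357 and 36889517 expected counts. Rounded expected counts were scaled with TMM in edgeR 4.0.16 (DESeq2 1.42.0 as an alternative, R 4.3.3) with a prior count of 0.5, and a 2-fold difference was read only at a mean count of at least 50. The scaling was tested on simulated data. No test compared groups and no p-value was computed, since there is 1 group of 2 libraries. Ratios within a library used TPM, with 0 counts set to 3 counts. A pair counted as beyond its spread when its sign agreed and the credibility bounds of its genes were apart in both libraries. Spread here means these bounds within a library, not the difference between the libraries. Transcript shares were counted over genes with 100 counts or more in each library. Models of Pfkp and Aldoc, which fell short of this, were named only to qualify their levels. Copies were found with BLAST 2.17.0 among M21 transcripts, at 95% identity over at least 500 bases. Python 3.11.15, numpy 2.4.6, pandas 2.3.3 and matplotlib 3.10.9 were used.

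The text names all 43 enzymes, both genes of each pair, further pathway genes at 1 TPM in each library or leading their list, the 2 highest markers of the lists it uses, and transcripts with a mixed or changing lead. Some items that this covers are not reported here. Eno3 and genes at 0 counts were named after their values were seen, as were neighbours, copies and Alas2. Members, lists and pairs were chosen with earlier results of these data known. Alternatives covered TPM minimums, rescaled and posterior mean TPM, counts, scalings, count filters and each library alone. Restricting to protein-coding models, and adding reads of copies, were chosen after seeing the data.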

Additional observations from a re-analysis of the deposited data

How the results depend on the processing

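Of the 43 genes, 33 reached 1 TPM in both libraries; at a minimum of 5 TPM the number was 13, and it was 35 in either library alone. Rescaling to nuclear protein-coding genes moved the pathway medians to 22.6 for glycolysis, 44.4 for the pentose phosphate pathway and 30.1 for pyruvate dehydrogenase and the TCA cycle by its construction, and kept their order. The 4 genes past 2-fold between the libraries became 10 by the ratio of deposited TPM, of which 9 were higher in replicate 1. Deposited TPM is not scaled between the libraries. Nuclear protein-coding genes as a whole held 12.4% of it in replicate 1 and 7.49% in replicate 2. The 10 were not set beside the same count for other genes. The 4 genes became 2 with a mean count of at least 500, where fewer genes were read, and 2 with reads of copies added. Of 107 alternative values for the 22 ratios, 103 kept their sign. Much of this was fixed in advance. For the 20 pairs beyond their spread, each library alone had to keep the sign, because the rule requires it. Posterior means came from the same reads. The Ogdh over Dlst log2 ratio reversed to 0.08 by expected counts, which are not divided by length, and the other 3 sign changes were in the pairs not beyond their spread. No paired analysis was possible because there is 1 group. Mean counts under 300 limit Pfkp, Aldoc, Pklr, Ldhb, Dlat and Suclg1.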

Other observations

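Genes for entry, exit and bypass reactions, outside the enzymes described so far, were present in part. The list held 19 genes, not all of which feed carbon into the mitochondrial cycle. Of these 19, 9 reached 1 TPM in each library, where 23.9% of nuclear protein-coding genes did. Mpc2, a subunit of the mitochondrial pyruvate carrier, led them with 18.96 TPM in replicate 1 and 11.13 TPM in replicate 2, and its partner Mpc1 had 5.24 and 2.33 TPM. Glud1, the glutamate dehydrogenase that makes oxoglutarate, had 2.10 and 1.68 TPM. Got2, the mitochondrial aspartate aminotransferase, had 2.75 and 1.26 TPM.

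Enzymes that link pyruvate and the cycle by other paths were present as well. Pck2, the mitochondrial phosphoenolpyruvate carboxykinase, had 9.65 TPM in replicate 1 and 5.16 TPM in replicate 2, whereas the cytosolic Pck1 had 0.26 and 0.02 TPM. Pcx, pyruvate carboxylase, had 3.30 and 2.73 TPM, and the malic enzyme Me2 had 4.62 and 1.87 TPM. Acly, which splits citrate in the cytosol to make acetyl-CoA, had 3.04 and 1.42 TPM.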
